A study of Homo sapiens with 9 samples.

Results

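Integrin subunits and laminin chains were examined in 9 libraries of polyadenylated RNA from the established human glioblastoma line LN229. Every gene named ITGA or ITGB with a number, the genes ITGAD, ITGAE, ITGAL, ITGAM, ITGAV, ITGAX and ITGA2B, and every gene named LAMA, LAMB or LAMC with a number was taken, without regard to its values. This gave 37 of 19356 genes: 17 integrin alpha subunits, 8 integrin beta subunits and 12 laminin chains. The groups were C4 (ARNT2 knockout by CRISPR, 3 libraries), B3 (ARNT2 knockout by CRISPR, 3 libraries) and WT (LN229 without the knockout, 3 libraries), and all were kept in DMEM with 5% FBS. ARNT2 is a transcription factor of the bHLH-PAS family, and the study addressed its role in how these tumour cells proliferate and differentiate. Each knockout line is a separate derivative of LN229, and the labels do not say whether it is a single clone. No label ties the libraries of a group to different cultures, and p-values therefore measure the spread between these libraries, which may be technical.

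Laminins are secreted trimers of an alpha, a beta and a gamma chain that polymerise into basement membranes. Integrins are cell-surface receptors made of an alpha and a beta subunit that bind laminins, collagens, fibronectin, vitronectin and other matrix proteins and connect them to the actin cytoskeleton. In glioblastoma, vascular basement membranes and the brain matrix are routes of invasion, and the receptors built on alpha v, alpha 5, alpha 6 and beta 1 chains are among the best studied integrins of these tumours.

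The upstream sequences of LAMA5 and ITGA11 are shown because these genes had the largest decrease in B3 and the largest increase in C4 among the members. Both are the 250 bases before the RefSeq start on GRCh38.p14, read 5′ to 3′ on the minus strand of the genome, which is the strand of both genes. LAMA5 is at chr20:62367313-62367562 and ITGA11 at chr15:68432164-68432413. Capitals mark 2 motifs searched on both strands: ACGTG, the core of sites bound by dimers of the ARNT family, and GGGCGG, the GC box bound by SP factors.
LAMA5: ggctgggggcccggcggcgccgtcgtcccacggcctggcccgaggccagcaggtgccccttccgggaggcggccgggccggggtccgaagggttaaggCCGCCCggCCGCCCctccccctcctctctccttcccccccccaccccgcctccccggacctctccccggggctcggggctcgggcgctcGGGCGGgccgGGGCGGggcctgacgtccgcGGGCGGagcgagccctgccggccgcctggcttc
ITGA11: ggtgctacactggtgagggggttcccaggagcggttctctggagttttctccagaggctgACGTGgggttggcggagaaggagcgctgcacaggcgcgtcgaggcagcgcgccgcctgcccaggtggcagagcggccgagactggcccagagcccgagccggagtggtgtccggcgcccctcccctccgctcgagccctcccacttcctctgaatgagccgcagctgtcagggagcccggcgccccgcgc
The LAMA5 window held 5 GC boxes and no ACGTG, and the ITGA11 window held 1 ACGTG, 190 bases before the start, and no GC box. No motifs overlapped in these windows. Over all 35116 RefSeq promoter windows of this length, 18.5% held ACGTG and 42.6% held GGGCGG. For the 25 members with an entry, which have 32 windows, 9.38% of windows held ACGTG (those of ITGA6 and ITGA11) and 50% held GGGCGG (13 genes). A match is a description of the letters and does not show binding.

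Values are log2 values scaled by the authors, and their read depth is unknown. Of the 37 members, 36 passed the filter on low values, a mean antilog of at least 10. LAMB4, a laminin beta chain, lay just outside, with a mean antilog of 7.26, and ITGAL lay just inside, with 10.05. ARNT2 RNA averaged 12.14 ± 0.09 in C4, 11.89 ± 0.02 in B3 and 13.57 ± 0.02 in WT (log2, SD, n = 3 each), which is 37.1% of the WT level in C4 and 31.1% in B3. In limma the adjusted p was 1.88e-20 for C4 and 1.74e-21 for B3, and in a two-sided exact permutation test p was 0.1 in either line, which no comparison of 3 with 3 libraries can go below. Whether ARNT2 protein was made was not measured. The glioma markers were high in every library: VIM had 17.83 to 18.23, S100B 16.12 to 16.49 and NES 15.32 to 15.47, while GFAP, an astrocyte marker, had only 6.61 to 6.98. Among leukocyte markers PTPRC had 2.35 to 2.4 and CD3E 1.86 to 1.91, the lowest of the 7 measured. The highest were LST1 with 6.03 to 6.31 and CSF1R with 5.45 to 5.59. The summed antilog of the 7 measured leukocyte markers was 177 to 183 in C4, 174 to 176 in B3 and 182 to 188 in WT.

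Changes below are log2 differences ± SE from limma over all 16457 genes tested, with 3 libraries per group. The threshold for a call was an adjusted p of 0.05 (Benjamini-Hochberg). C4 and B3 were set against the same WT libraries, and the difference between their changes was tested as C4 minus B3.

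In B3 against WT, laminin chains and several of their receptors fell. Of the 36 tested members 23 were called (63.9%), against 47.9% of all genes tested. Lower calls numbered 19 (52.8%), where 24.6% of all genes were lower, and higher calls 4 (11.1%), where 23.2% were higher. The members thus fell more often and rose less often than genes at large. All 9 member calls with a change of at least 0.25 were decreases (25% of members), where 6.49% of all genes were lower by that much, 2.82% higher and 9.31% either. At an unadjusted p under 0.05 in limma, the number of members higher by that much was also 0. The B3 and WT libraries of 19 members did not overlap with B3 lower, against 27.4% of all genes, and those of 4 members with B3 higher, against 26.4%. Among members with a mean antilog of at least 1000, 16 of 22 were lower in B3, against 2967 of 10589 genes at those levels.

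In C4 against WT the members went both ways: 22 were called (61.1%), against 56.2% of all genes, a share near that of all genes when level is not matched. Of these, 9 were higher (25%, with 28.2% of all genes) and 13 lower (36.1%, with 28% of all genes). Changes of at least 0.25 were called in 8 members (22.2%, with 15.2% of all genes), 3 of them higher (6.57% of all genes) and 5 lower (8.6% of all genes). Libraries did not overlap with C4 higher in 11 members, against 30.5% of all genes, and with C4 lower in 13, against 30.2%. Among members with a mean antilog of at least 1000, 20 of 22 were called in C4, against 7150 of 10589 genes at those levels. Higher calls numbered 8, against 3671 of those genes, and lower calls 12, against 3479.

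In C4 against B3, 24 members were called (66.7%), against 56.4% of all genes. Higher calls numbered 16 (44.4%), where 28.6% of all genes were higher, and lower calls 8 (22.2%), where 27.8% were lower. Changes of at least 0.25 were called in 14 members (38.9%, with 16.3% of all genes), 10 of them higher (8.63% of all genes) and 4 lower (7.66% of all genes). Libraries did not overlap with C4 higher in 19 members, against 31.4% of all genes, and with C4 lower in 7, against 30.9%. The median member changed by -0.02 in C4, by -0.09 in B3 and by 0.07 in C4 against B3, where the median of all genes was 0.00 in each comparison. With every library set to the same total antilog, the split against WT was 12 higher and 10 lower in C4, and 6 higher and 16 lower in B3. Of all genes called at that scaling, 61.5% were higher in C4 and 64.2% in B3. The change of each member is plotted with the median change of the genes around it.

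**Figure D1:**
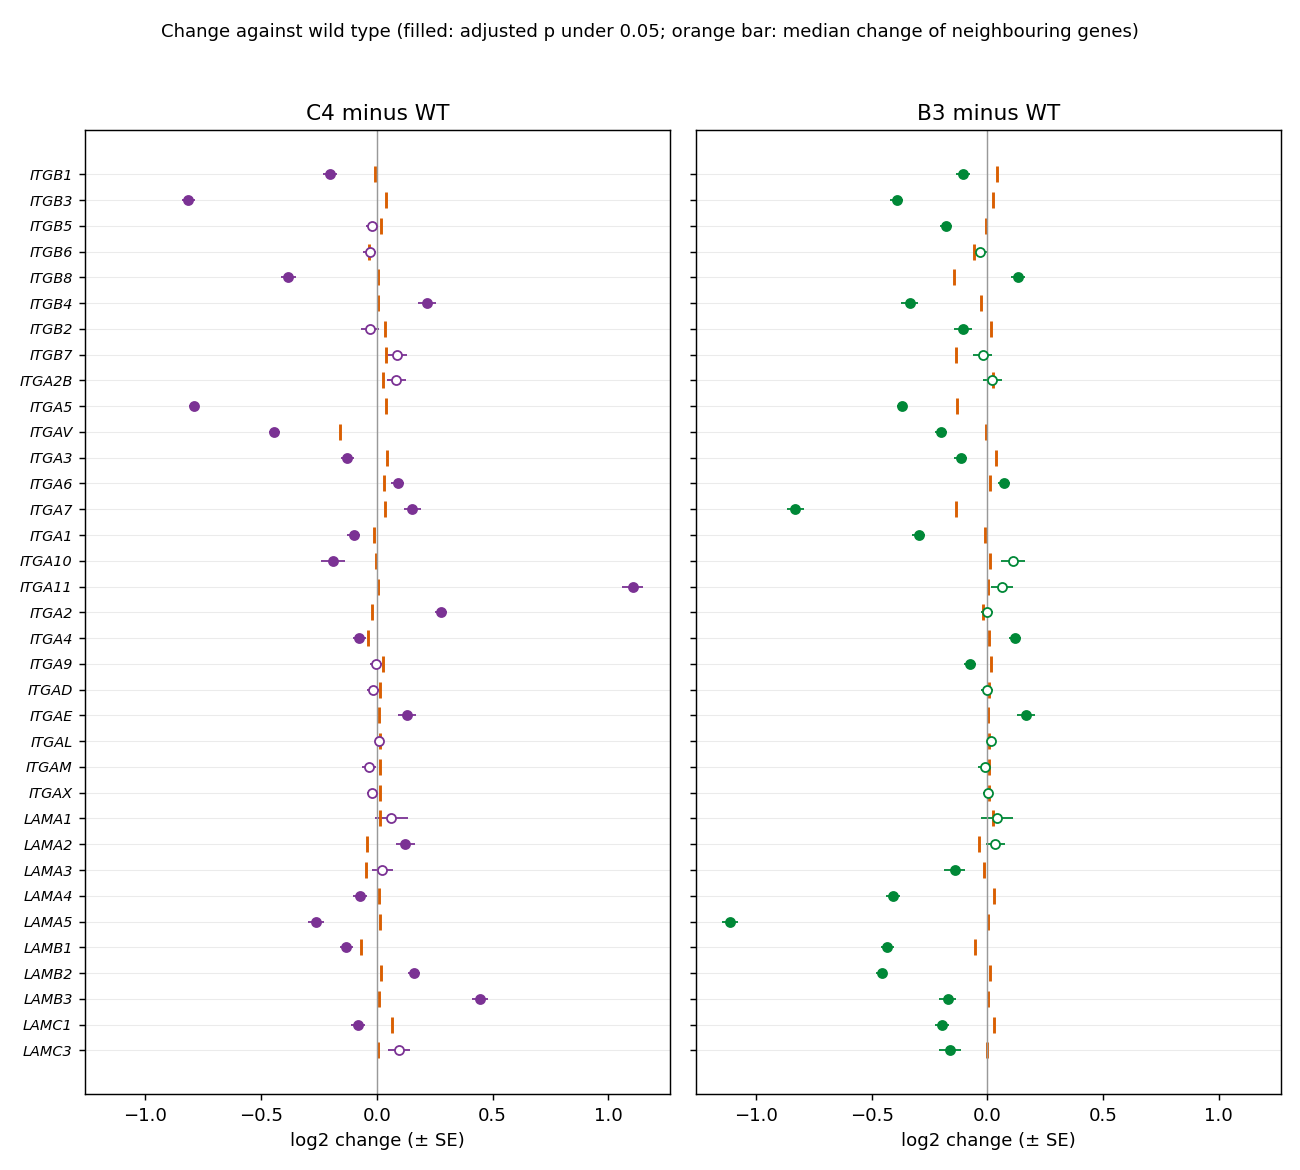
Log2 change ± SE (x axis) of tested members (rows, grouped by role) in C4 against WT (left) and B3 against WT (right), n = 3 libraries per group; filled points passed an adjusted p under 0.05, and orange bars give the median change of tested genes within 5 Mb. LAMA5 (-1.11) and ITGA7 (-0.83) lie farthest left in B3, and ITGA11 (1.10) lies farthest right in C4, all far from the orange bars.

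Laminin chains were lower in B3 and mixed in C4. Of 11 tested chains, 8 fell and 0 rose in B3, with a median change of -0.17, and at an unadjusted p under 0.05 in limma 0 were higher as well. The 8 chains are 72.7% of those tested, where 24.6% of all genes were lower and 23.2% higher. In C4, 3 rose (27.3%) and 4 fell (36.4%), with a median of 0.02, which is near the 28.2% and 28% of all genes. In C4 against B3, 8 were higher (72.7%, with 28.6% of all genes), with a median of 0.26.

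Among the alpha chains, which give a laminin its receptor binding, LAMA4 was by far the most abundant. LAMA4, the alpha chain of vascular and mesenchymal basement membranes, had log2 values of 17.24, 17.2 and 17.21 in C4, 16.89, 16.91 and 16.86 in B3, and 17.34, 17.28 and 17.26 in WT. B3 was the lowest group without overlap, and C4 lay just below WT. LAMA4 fell by 0.41 ± 0.03 in B3 (adjusted p = 8.86e-11), and C4 was higher than B3 by 0.34 ± 0.03. The difference of C4 from WT, -0.07 ± 0.03, was called at an adjusted p of 0.0385, and the call was lost without WT library 1 (0.107), C4 library 2 (0.136), C4 library 3 (0.103), B3 library 1 (0.0591) or B3 library 2 (0.0503). LAMA5 (ENSG00000130702.15, chromosome 20, 62307955 to 62367312, minus strand, GRCh38 by GENCODE 29), a broadly expressed alpha chain of mature epithelial and vascular basement membranes, had 12.86, 12.93 and 13.03 in C4, 12.11, 12.14 and 12.03 in B3, and 13.22, 13.17 and 13.22 in WT. All 3 groups stood apart, with B3 far below the others. In B3 LAMA5 fell by 1.11 ± 0.03, to 46.3% of the WT level (adjusted p = 1.49e-17), and in C4 by 0.26 ± 0.03, to 83.3% (adjusted p = 6.15e-07). C4 exceeded B3 by 0.85 ± 0.03. The opposite-strand neighbour ADRM1, a proteasome subunit whose exons overlap LAMA5, changed by 0.07 in B3 and -0.06 in C4. The other alpha chains were weak. LAMA3, a chain of epithelial laminins, fell by 0.14 ± 0.05 in B3 from a low level (6.31 to 6.61 over all libraries), and the call was lost without WT library 3 (adjusted p = 0.0882) or B3 library 3 (0.121). LAMA2, the alpha chain of muscle and Schwann cell basement membranes, rose by 0.12 ± 0.04 in C4 between 6.79 and 6.96. LAMA1, an early embryonic chain, was not called in any comparison and ranged from 5.41 to 5.81.

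The beta chains fell together in B3 and split in C4. LAMB1, the beta chain of the most widespread laminins, had 16.95, 16.91 and 16.91 in C4, 16.61, 16.65 and 16.61 in B3, and 17.1, 17.03 and 17.04 in WT. Its groups did not overlap, with B3 lowest and WT highest. LAMB1 fell by 0.43 ± 0.03 in B3 (adjusted p = 1.77e-11) and by 0.13 ± 0.03 in C4 (adjusted p = 0.000413). The genes within 5 Mb had a median change of -0.07 in C4, and once LAMB1 was centred on them its C4 call was lost (-0.06, adjusted p = 0.0755). LAMB2 (ENSG00000172037.13, chromosome 3, 49121114 to 49133118, minus strand), the beta chain of synaptic, kidney and vascular basement membranes, had 15.74, 15.76 and 15.78 in C4, 15.13, 15.17 and 15.13 in B3, and 15.65, 15.57 and 15.58 in WT. The WT libraries thus lay between the C4 libraries above and the B3 libraries below. LAMB2 rose by 0.16 ± 0.02 in C4 (adjusted p = 7.44e-06) and fell by 0.46 ± 0.02 in B3 (adjusted p = 5.90e-13), and C4 exceeded B3 by 0.62 ± 0.02. LAMB3, the beta chain of the epithelial laminin that anchors hemidesmosomes, had 11.35, 11.28 and 11.33 in C4, 10.64, 10.73 and 10.73 in B3, and 10.89, 10.84 and 10.88 in WT. Its order was the same, C4 above WT above B3. LAMB3 rose by 0.45 ± 0.04 in C4 (adjusted p = 2.11e-10) and fell by 0.17 ± 0.04 in B3 (adjusted p = 0.000339).

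Gamma chains moved less. LAMC1, the gamma chain of nearly all laminins, fell by 0.08 ± 0.03 in C4 and by 0.20 ± 0.03 in B3, within a range of 17.18 to 17.44 over all libraries. Its C4 call was lost without WT library 1 (adjusted p = 0.0518) or C4 library 2 (0.0954). LAMC3, a gamma chain best known from the brain surface and peripheral nerves, had 8.03, 8.03 and 8.05 in C4, 7.86, 7.78 and 7.7 in B3, and 7.92, 8 and 7.91 in WT. The groups did not overlap, again with C4 highest and B3 lowest. LAMC3 fell by 0.16 ± 0.05 in B3 (adjusted p = 0.00682, and 0.0547 without B3 library 3), and its C4 difference of 0.09 ± 0.05 missed the threshold (adjusted p = 0.0952). C4 was higher than B3 by 0.26 ± 0.05 (adjusted p = 6.68e-05).

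**Figure D2:**
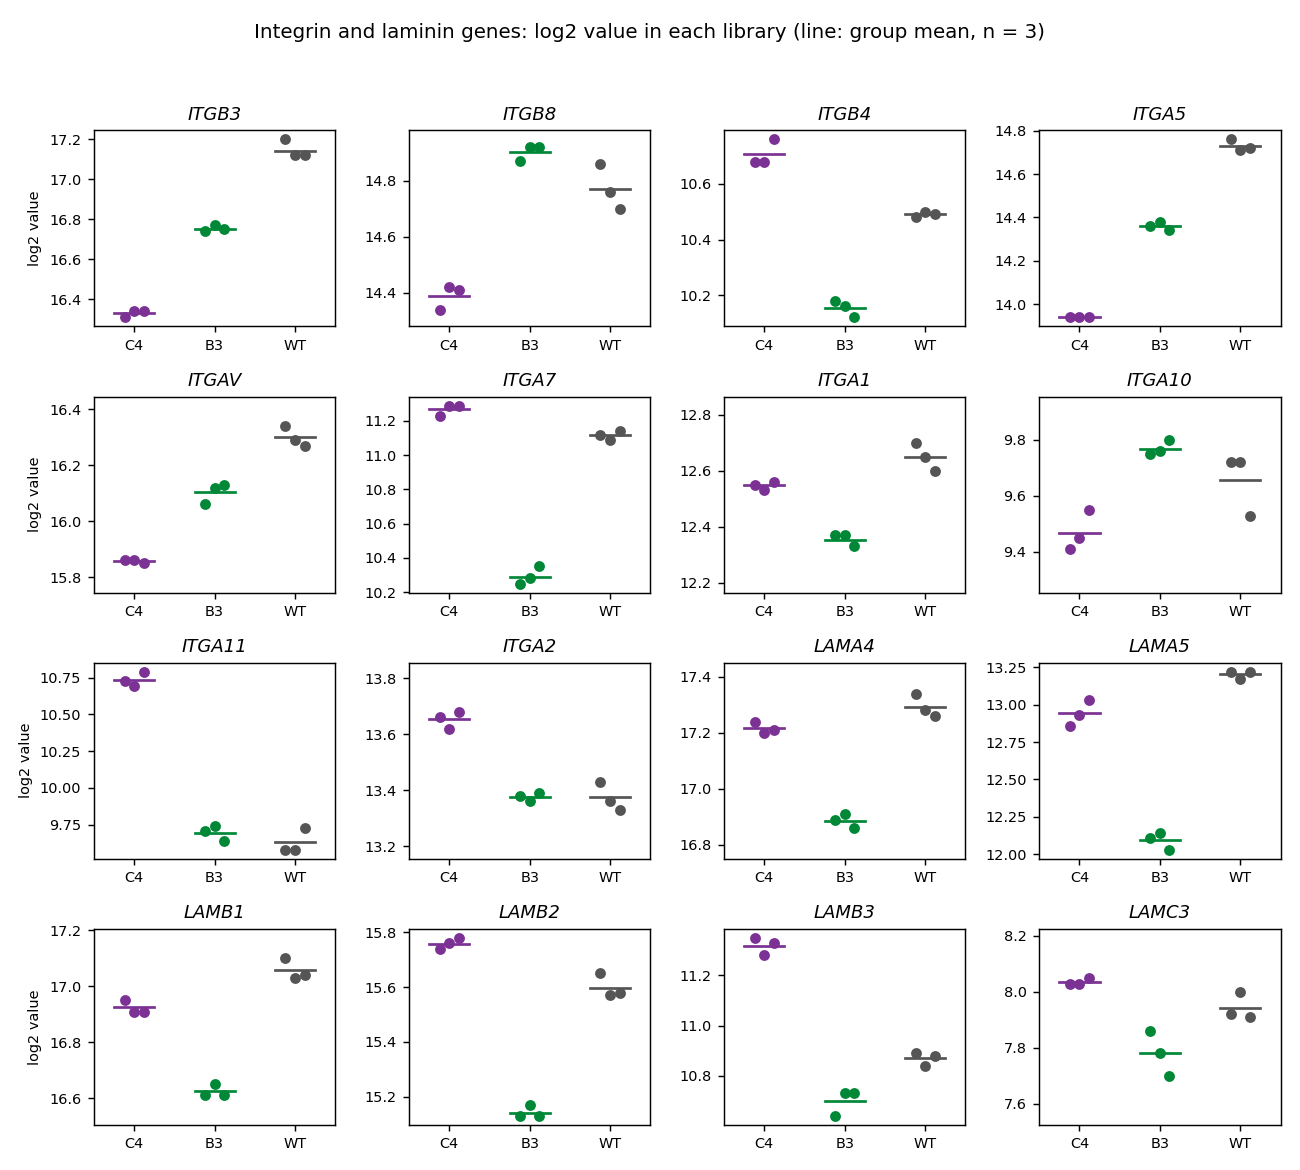
Log2 value (y axis, each panel with its own range) of the 16 members called in at least 1 comparison with a change of at least 0.25, in each library of C4, B3 and WT (x axis); points are libraries and lines are group means, n = 3. LAMA5, LAMB2 and ITGA7 are lowest in B3, while ITGB3, ITGA5 and ITGAV are lowest in C4, intermediate in B3 and highest in WT.

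Among the integrins, ITGB3, ITGA5 and ITGAV were lower in both lines, and lower in C4 than in B3. ITGB3 (ENSG00000259207.7, chromosome 17, 47253846 to 47311816, plus strand), the beta chain of the alpha v beta 3 receptor, had 16.31, 16.34 and 16.34 in C4, 16.74, 16.77 and 16.75 in B3, and 17.2, 17.12 and 17.12 in WT. The 3 groups stood apart, C4 lowest and WT highest. ITGB3 fell by 0.81 ± 0.03 in C4, to 56.9% of WT (adjusted p = 4.25e-17), and by 0.39 ± 0.03 in B3, to 76.2% (adjusted p = 6.79e-11). C4 was lower than B3 by 0.42 ± 0.03. ITGA5 (ENSG00000161638.10, chromosome 12, 54395261 to 54419460, minus strand), the alpha chain of the main fibronectin receptor, had 13.94 in all C4 libraries, 14.36, 14.38 and 14.34 in B3, and 14.76, 14.71 and 14.72 in WT. Its groups were ordered as those of ITGB3 were. ITGA5 fell by 0.79 ± 0.02 in C4, to 57.8% of WT (adjusted p = 1.01e-18), and by 0.37 ± 0.02 in B3, to 77.4% (adjusted p = 3.45e-12). The 179 tested genes within 5 Mb of ITGA5 had a median change of 0.04 in C4 and of -0.13 in B3. Relative to those neighbours ITGA5 changed by -0.83 in C4 and by -0.24 in B3. ITGAV, the alpha v chain that pairs with beta 1, beta 3, beta 5, beta 6 and beta 8, had 15.86, 15.86 and 15.85 in C4, 16.06, 16.12 and 16.13 in B3, and 16.34, 16.29 and 16.27 in WT. The same order held without overlap. ITGAV fell by 0.44 ± 0.03 in C4 (adjusted p = 8.09e-13) and by 0.20 ± 0.03 in B3 (adjusted p = 9.64e-07). Its 33 neighbours had a median change of -0.16 in C4, and relative to them ITGAV changed by -0.28. In C4 against B3 ITGAV changed by -0.24, where those neighbours had a median of -0.15, and relative to them by -0.09. ITGA2B, the platelet fibrinogen receptor chain, was not called in any comparison and ranged from 9.52 to 9.64.

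The other beta chains that join alpha v differed among themselves. ITGB8, a receptor for latent TGF-beta that is abundant in neural cells, had 14.34, 14.42 and 14.41 in C4, 14.87, 14.92 and 14.92 in B3, and 14.86, 14.76 and 14.7 in WT. C4 was far below both other groups, and the lowest B3 library was just above the highest WT library. ITGB8 fell by 0.38 ± 0.03 in C4 (adjusted p = 3.64e-10) and rose by 0.13 ± 0.03 in B3 (adjusted p = 0.00114), where its 32 neighbours had a median change of -0.15. ITGB5, a vitronectin receptor chain, fell by 0.18 ± 0.03 in B3 and was not called in C4 (-0.02 ± 0.03), within a range of 13.91 to 14.17. ITGB6, an epithelial chain, was near the floor at 4.28 to 4.39 and was not called. ITGB1, the common partner of most alpha chains, fell by 0.20 ± 0.03 in C4 (adjusted p = 4.07e-06) and by 0.10 ± 0.03 in B3 (adjusted p = 0.00589), within 16.9 to 17.17 over all libraries. ITGB1 was also lower in C4 than in B3, by 0.10 ± 0.03 (adjusted p = 0.00810), so its groups had the order of those of ITGB3. Its B3 call was lost without B3 library 1 (adjusted p = 0.0511), and its difference between the lines was not called once centred on its neighbours (adjusted p = 0.217).

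Per kilobase of exon, the share of ITGB3 among the transcripts of the 5 beta chains that pair with alpha v fell in both lines and that of ITGB1 rose. ITGB3 made up 43.2% ± 0.571 in C4, 48.7% ± 0.396 in B3 and 53.9% ± 0.0379 in WT (SD, n = 3 each). ITGB1 made up 47.3% ± 0.736 in C4, 42.7% ± 0.420 in B3 and 38.6% ± 0.0566 in WT. The order of these chains per kilobase was therefore ITGB1 before ITGB3 in C4 and ITGB3 before ITGB1 in B3 and WT. That order depends on the exon lengths used, 4394 bases for ITGB3 and 6011 for ITGB1. Before division by length, the log2 mean of ITGB1 was 16.92 in C4, 17.01 in B3 and 17.12 in WT. That of ITGB3 was 16.33, 16.75 and 17.14, so ITGB1 led in B3 as well as in C4. ITGB5 had a share of 6.22% in C4, 4.70% in B3 and 4.48% in WT, and ITGB8 3.26% in C4, 3.92% in B3 and 3.01% in WT. No share of these 4 chains overlapped between a knockout line and WT, and each exact two-sided permutation test gave p = 0.1, the smallest value the design allows. A higher share here is relative and need not mean more RNA. ITGB1 RNA itself fell by 0.20 in C4 and by 0.10 in B3, ITGB8 by 0.38 in C4 and ITGB5 by 0.18 in B3. Transcript shares do not measure how much of each receptor reaches the surface.

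**Figure D3:**
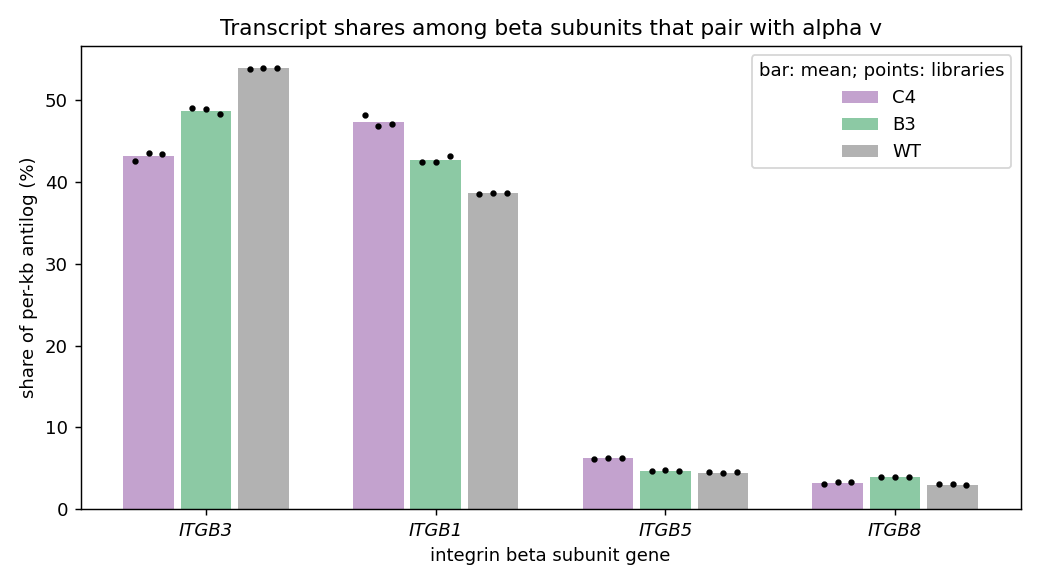
Share (%, y axis from 0) of ITGB3, ITGB1, ITGB5 and ITGB8 in the summed antilog per kilobase of the beta chains that pair with alpha v, in C4, B3 and WT; bars are means of 3 libraries and points are libraries. ITGB3 is at 43.2% in C4, 48.7% in B3 and 53.9% in WT, and ITGB1 runs the other way.

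Laminin receptors of the integrin family changed unevenly. ITGA7 (ENSG00000135424.16, chromosome 12, 55684568 to 55716043, minus strand), a laminin receptor alpha chain best known from muscle, had 11.23, 11.29 and 11.29 in C4, 10.25, 10.28 and 10.35 in B3, and 11.12, 11.09 and 11.14 in WT. B3 was far below the other groups, and C4 was slightly above WT. ITGA7 rose by 0.15 ± 0.04 in C4 (adjusted p = 0.000907) and fell by 0.83 ± 0.04 in B3, to 56.3% of WT (adjusted p = 9.87e-15). C4 exceeded B3 by 0.98 ± 0.04. Its 158 neighbours had a median change of -0.13 in B3. METTL7B, which lies on the opposite strand and shares exonic sequence with ITGA7, changed by 0.21 in C4 and by -0.50 in B3. BLOC1S1, which also shares exonic sequence with ITGA7 on the opposite strand, changed by -0.01 in C4 and by -0.19 in B3. Whether counting used strand is not given in the sources used here, so whether reads in the shared sequence were told apart is unknown. ITGB4, the beta chain that joins alpha 6 in hemidesmosomes, had 10.68, 10.68 and 10.76 in C4, 10.18, 10.16 and 10.12 in B3, and 10.48, 10.5 and 10.49 in WT. The order was C4 above WT above B3, with no overlap. ITGB4 rose by 0.22 ± 0.04 in C4 (adjusted p = 3.12e-05) and fell by 0.34 ± 0.04 in B3 (adjusted p = 1.16e-07). The abundant laminin-binding alpha chains moved little. ITGA6, a marker of glioma stem cells in other studies, rose by 0.09 ± 0.03 in C4 and by 0.07 ± 0.03 in B3, where the libraries overlapped with WT. The B3 call of ITGA6 was lost without WT library 2 (adjusted p = 0.104), WT library 3 (0.142) or B3 library 2 (0.184). Relative to its 65 tested neighbours within 5 Mb, ITGA6 changed by 0.061 in C4 and by 0.057 in B3. ITGA3 fell by 0.13 ± 0.03 in C4 and by 0.12 ± 0.03 in B3, within 14.71 to 14.94.

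All 4 collagen-binding alpha chains were called between C4 and B3, where 56.4% of all genes tested were called. ITGA11 (ENSG00000137809.16, chromosome 15, 68296533 to 68432162, minus strand), a collagen receptor chain of fibroblasts and mesenchymal cells, had 10.73, 10.69 and 10.79 in C4, 9.71, 9.74 and 9.64 in B3, and 9.58, 9.58 and 9.73 in WT. The C4 libraries were all well above the rest, and B3 and WT overlapped. ITGA11 rose by 1.10 ± 0.05 in C4, a 2.15-fold increase (adjusted p = 2.45e-15). In B3 its difference from WT was 0.07 ± 0.05 (adjusted p = 0.270), and C4 exceeded B3 by 1.04 ± 0.05 (adjusted p = 7.41e-15). ITGA2, the collagen and laminin receptor chain of platelets and epithelia, had 13.66, 13.62 and 13.68 in C4, 13.38, 13.36 and 13.39 in B3, and 13.43, 13.36 and 13.33 in WT. ITGA2 was higher in C4 than in either other group, by 0.28 ± 0.03 against WT (adjusted p = 2.84e-09) and by 0.28 ± 0.03 against B3. ITGA1, a receptor chain for collagens and laminins, had 12.55, 12.53 and 12.56 in C4, 12.37, 12.37 and 12.33 in B3, and 12.7, 12.65 and 12.6 in WT. Here B3 was lowest and WT highest, without overlap. ITGA1 fell by 0.10 ± 0.03 in C4 (adjusted p = 0.00370) and by 0.30 ± 0.03 in B3 (adjusted p = 6.52e-09), while PELO, which shares exons with it on the same strand, changed by -0.12 in C4 and by 0.06 in B3. Strand cannot separate reads in those shared exons. ITGA10, a cartilage collagen receptor chain, had 9.41, 9.45 and 9.55 in C4, 9.75, 9.76 and 9.8 in B3, and 9.72, 9.72 and 9.53 in WT. WT library 3 lay within the C4 range and the other WT libraries just below B3. ITGA10 fell by 0.19 ± 0.05 in C4 (adjusted p = 0.00344). Its B3 difference of 0.11 ± 0.05 (adjusted p = 0.0853) passed the threshold without WT library 1 (0.0415) or WT library 2 (0.0440). C4 was lower than B3 by 0.30 ± 0.05 (adjusted p = 3.13e-05).

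ITGA4, a receptor chain for VCAM1 and fibronectin, fell by 0.08 ± 0.03 in C4 and rose by 0.12 ± 0.03 in B3, within 13.32 to 13.56. The call in C4 was lost without WT library 1 (adjusted p = 0.116), C4 library 1 (0.0580) or C4 library 2 (0.0556). The 27 tested genes within 5 Mb of ITGA4 had a median change of -0.038 in C4, and relative to them ITGA4 changed by -0.037. ITGA9, a tenascin-C and osteopontin receptor chain, fell by 0.07 ± 0.03 in B3 and was not called in C4 against WT. Its B3 call was lost without WT library 1 (adjusted p = 0.118), B3 library 1 (0.0717) or B3 library 3 (0.0551). C4 was above B3 in ITGA9 by 0.07 ± 0.03, a call also lost without B3 library 1 (0.0849), B3 library 3 (0.0667), C4 library 1 (0.0845) or C4 library 3 (0.115). ITGA9-AS1, which shares exonic sequence with ITGA9 on the opposite strand, changed by -0.11 in B3, 0.03 in C4 and 0.14 in C4 against B3. Whether reads in that shared sequence were told apart is unknown.

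Subunits of leukocyte integrins were mostly near the floor, where the spread between replicates was small (median SD of 0.0223 at values of 2 to 5). ITGAL, ITGAX, ITGAD and ITGAM ranged from 3.29 to 5.36 and were not called in any of the 3 comparisons, nor did they pass an unadjusted p under 0.05 in limma. ITGAE, the receptor chain for E-cadherin, was the exception at 10.63 to 10.9. HASPIN shares exonic sequence with ITGAE on the opposite strand, and whether reads there were told apart is unknown. ITGAE rose by 0.13 ± 0.04 in C4 and by 0.17 ± 0.04 in B3, and its C4 call was lost without WT library 3 (adjusted p = 0.0524) or C4 library 2 (0.0520). ITGB2, the common leukocyte beta chain, ranged from 6.35 to 6.54 and fell by 0.10 ± 0.04 in B3. That call was lost without WT library 1 (adjusted p = 0.126), WT library 2 (0.0996), B3 library 1 (0.153) or B3 library 2 (0.0532). ITGB7, the partner of ITGAE, ranged from 5.99 to 6.17 and was higher in C4 than in B3 by 0.11 ± 0.04. Its call was lost without B3 library 1 (adjusted p = 0.0900), B3 library 2 (0.0651) or C4 library 1 (0.106), and without WT library 1 ITGB7 was also called higher in C4 than in WT (0.00342). The ITGB7 neighbours had a median change of 0.17 in C4 against B3, and ZNF740 on the opposite strand changed by 0.19.

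By level per kilobase of exon, the members spanned more than 4 orders of magnitude. In WT, ITGB3 was first with an antilog of 32971 ± 1068 per kb, followed by ITGB1 with 23639 ± 742, LAMC1 with 20525 ± 540, LAMB1 with 16751 ± 476 and LAMA4 with 13865 ± 415 (SD, n = 3). The lead of ITGB3 over ITGB1 rests mostly on their exon lengths of 4394 and 6011 bases, as their WT log2 means were 17.14 and 17.12. In C4 the order was ITGB1 with 20565 ± 349, LAMC1 with 19373 ± 272 and ITGB3 with 18748 ± 225, then LAMB1 and LAMA4. The most abundant chain of each laminin type was thus LAMA4, LAMB1 and LAMC1 in every group. LAMA4 held 95.8% ± 0.271 of the laminin alpha transcripts per kb in C4, 97.0% ± 0.0595 in B3 and 95.3% ± 0.137 in WT, and LAMA5 held 4.01% ± 0.264 in C4, 2.84% ± 0.0597 in B3 and 4.54% ± 0.132 in WT. Next came ITGAV, ITGA6 and LAMB2 in WT, ITGA6, ITGAV and LAMB2 in B3, and ITGA6, LAMB2 and ITGAV in C4. Neighbours in the WT order whose libraries overlapped were ITGA4 with ITGA2, ITGA7 with ITGA1, and ITGA2B with ITGA10.

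**Figure D4:**
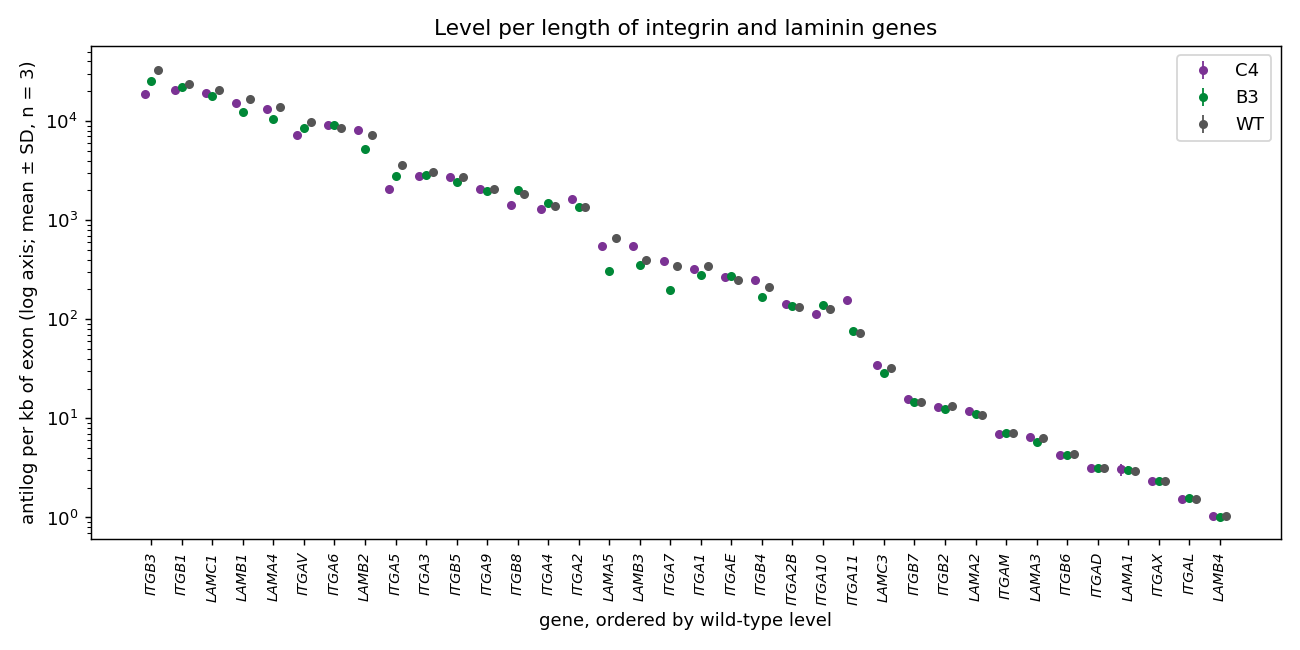
Antilog per kilobase of exon (log y axis; mean ± SD, n = 3 libraries) of members in C4, B3 and WT, ordered along the x axis by the WT level. ITGB3, ITGB1, LAMC1, LAMB1 and LAMA4 lead, and LAMB4 is last at about 1 per kb.

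Most other basement membrane genes were lower in B3. Of 19 tested partners of laminins, 8 fell (42.1%) and 3 rose (15.8%) in C4, with a median change of -0.03, where 28% of all genes fell and 28.2% rose. In B3, 14 fell (73.7%) and 2 rose (10.5%), with a median of -0.26, where 24.6% of all genes fell and 23.2% rose. HSPG2, the heparan sulfate proteoglycan perlecan, changed by -0.09 ± 0.04 in C4 and by -0.54 ± 0.04 in B3. NID1, the nidogen that links laminin to collagen IV, fell by 0.55 ± 0.03 in C4 and by 0.26 ± 0.03 in B3. FREM1 fell by 0.89 ± 0.03 in C4 and by 0.77 ± 0.03 in B3, and FREM2 by 0.57 ± 0.03 in C4 and by 0.41 ± 0.03 in B3; both encode proteins of the epithelial to mesenchymal basement membrane zone. FRAS1, their partner, was higher in C4 than in B3 by 0.51 ± 0.05, and COL4A6 by 0.40 ± 0.03. Among 8 epithelial markers, 2 were lower in B3 (25%, with 24.6% of all genes), KRT8 by 0.64 ± 0.04 and KRT18 by 0.33 ± 0.03, and the other 6 were not called. In C4, 0 of 8 were called, also at an unadjusted p under 0.05 in limma. KRT18 and KRT8 were the most abundant of the list, whose summed antilog was 22758 to 23568 in C4, 17851 to 18724 in B3 and 22319 to 24808 in WT. EPCAM and CDH1 stayed low, at 5.55 to 5.97, in all libraries. The sum of 7 endothelial markers was 716 to 734 in C4, 615 to 638 in B3 and 718 to 758 in WT. In B3, VWF, the most abundant of them, fell by 0.41 ± 0.05 and PECAM1 by 0.12 ± 0.03, while KDR rose by 0.12 ± 0.04. The sum of 8 fibroblast and mural markers was 13553 to 14178 in C4, 14730 to 15212 in B3 and 16912 to 17261 in WT. Of these, 2 were lower and 2 higher in B3: RGS5 fell by 1.22 ± 0.05 and PDGFRB fell by 0.12 ± 0.04, while COL3A1 rose by 0.34 ± 0.07 and DCN by 0.28 ± 0.05. In C4, LUM fell by 0.89 ± 0.03, DCN by 0.50 ± 0.05 and PDGFRB by 0.23 ± 0.04. The part of these marker changes in the laminin result was not tested. Every library came from LN229 or a line derived from it, so these markers are not counts of other cell types. In bulk RNA, fewer cells expressing a gene and less RNA per cell cannot be told apart.

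Laminin receptors outside the integrin family changed in both directions. Of 21 tested, 10 rose (47.6%, with 28.2% of all genes) and 5 fell (23.8%, with 28%) in C4. In B3, 4 rose (19%) and 6 fell (28.6%), near the 23.2% and 24.6% of all genes. The medians were 0.06 in C4 and 0.02 in B3. BCAM, a receptor for LAMA5-containing laminins, fell by 0.28 ± 0.03 in C4 and by 0.71 ± 0.03 in B3. SSPN, the sarcospan of the dystrophin complex, fell by 1.08 ± 0.05 in B3, and C4 exceeded B3 by 1.03 ± 0.05. DMD, which encodes dystrophin, rose by 0.91 ± 0.04 in B3, and C4 was lower than B3 by 0.67 ± 0.04. In C4, SGCD, a sarcoglycan, rose by 0.49 ± 0.03 and SNTB2, a syntrophin, by 0.38 ± 0.04. DAG1, dystroglycan itself, rose by 0.14 ± 0.04 in C4, where the libraries overlapped with WT, and was not called in B3. DAG1 was named after its values were seen.

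Most membrane partners of integrins were lower in B3. Among the 20 tested, 7 rose (35%) and 6 fell (30%) in C4, near the 28.2% and 28% of all genes. In B3, 3 rose (15%, with 23.2% of all genes) and 13 fell (65%, with 24.6%). The medians were 0.00 in C4 and -0.14 in B3. The syndecan gene SDC2, a matrix co-receptor, rose by 1.02 ± 0.03 in C4 and fell by 0.37 ± 0.03 in B3. In C4, SLC3A2, the heavy chain that binds beta subunits and amino acid transporters, fell by 0.69 ± 0.02 and SDC4 by 0.48 ± 0.02. NRP1, a neuropilin, rose by 0.44 ± 0.03 in B3 and LGALS1, a galectin, by 0.25 ± 0.03. LGALS3 was higher in C4 than in B3 by 0.64 ± 0.03.

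Ligands of integrins other than laminins were often lower in B3. Of 33 tested, 7 rose (21.2%) and 11 fell (33.3%) in C4, near the 28.2% and 28% of all genes. In B3, 5 rose (15.2%) and 16 fell (48.5%), where 23.2% of all genes rose and 24.6% fell. The medians were -0.05 in C4 and -0.13 in B3. The matrix protein gene TGFBI fell by 0.61 ± 0.03 in C4 and by 0.55 ± 0.03 in B3. ICAM1, a ligand of leukocyte integrins, fell by 0.72 ± 0.03 in C4 and by 0.45 ± 0.03 in B3. FN1, fibronectin, the ligand of the ITGA5 receptor, fell by 0.35 ± 0.03 in C4 and by 0.28 ± 0.03 in B3; it was named for that pairing after its values were seen. CTGF, a matricellular protein, rose by 0.54 ± 0.03 in C4. ADAM9 fell by 0.42 ± 0.02 in B3. C4 was higher than B3 in COL5A1 by 0.51 ± 0.03 and in FBN2 by 0.45 ± 0.04, and lower in COL3A1 by 0.48 ± 0.07.

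Inside the cell, the adaptors of focal adhesions were evenly split, with 10 higher and 10 lower of 28 in C4 (35.7% each way, with 28.2% and 28% of all genes). In B3, 9 were higher (32.1%, with 23.2% of all genes) and 10 lower (35.7%, with 24.6%), and the medians were -0.01 in C4 and -0.02 in B3. KANK1, which links talin to the cell cortex, rose by 0.50 ± 0.03 in C4 and by 0.22 ± 0.03 in B3. PARVA, an ILK partner, rose by 0.42 ± 0.02 in C4. The tensins differed: TNS2 rose by 0.41 ± 0.03 in C4, TNS1 fell by 0.49 ± 0.05 in B3, and TNS3 was higher in C4 than in B3 by 0.41 ± 0.02. C4 also exceeded B3 in KANK2 by 0.37 ± 0.02. FERMT3, the kindlin of blood cells, rose by 0.31 ± 0.05 in B3. Of 25 kinases and exchange factors close to integrins, 13 rose (52%, with 28.2% of all genes) and 4 fell (16%, with 28%) in C4. In B3, 6 rose (24%, with 23.2% of all genes) and 12 fell (48%, with 24.6%), and the medians were 0.07 in C4 and -0.06 in B3. PTK2, focal adhesion kinase, fell by 0.41 ± 0.02 in C4, while ELMO1, a subunit of a Rac exchange factor, rose by 0.58 ± 0.02 and the scaffold gene NEDD9 by 0.35 ± 0.03. In B3, LYN, a SRC family kinase, fell by 0.40 ± 0.05, ELMO1 by 0.20 ± 0.02 and its partner DOCK1 by 0.19 ± 0.02. ARHGEF6 was higher in C4 than in B3 by 0.43 ± 0.03. Of 15 trafficking genes, 7 rose (46.7%, with 28.2% of all genes) and 1 fell (6.67%, with 28%) in C4, and 6 rose (40%, with 23.2%) and 2 fell (13.3%, with 24.6%) in B3. Among them SWAP70 rose by 0.30 ± 0.02 and the endosome tether gene EEA1 by 0.23 ± 0.03 in C4, where RAB5A fell by 0.12 ± 0.02. In B3 the recycling GTPase genes RAB21 and RAB4A each fell by 0.26, with SEs of 0.03 and 0.04, and AP2M1 rose by 0.12 ± 0.02.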

How the data were processed

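The authors deposited log2 values, scaled between libraries, of 19356 genes with a column for each of 9 libraries. Per the submitters' processing notes the authors used STAR 2.7.3a, Subread 1.6.3 and DESeq2 with hg38. The transform is not given in the sources used here. The median SD between replicates was 0.00935 at values under 2 and 0.0452 at values of 8 to 12, and changes of weak genes may be understated. The table holds no read counts, so depth is unknown and the intended count tests were not run.

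From these values, the 16457 genes whose antilog averaged 10 or more entered a single limma fit (limma 3.58.1, R 4.3.3) with a coefficient per group, an intensity trend and two-sided tests. Benjamini-Hochberg adjustment ran over all genes tested, and calls were made at 0.05. Lengths are merged exons and positions are from GENCODE 29 on GRCh38. Per-kb shares are of antilogs. The script was tested on simulated data. A member is given in every library when it was called with a change of at least 0.25 and a mean antilog of at least 50; of each pathway list up to 3 called genes per comparison are named by size of change, and genes named beyond that rule were added after their values were seen. The counts cover every member, and the values of 1 member are not reported here. Members and lists were chosen with earlier results of these data known. No label gives a batch or says that a replicate number marks a shared culture or day, and the main fit did not pair libraries by number.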

Additional observations from a re-analysis of the deposited data

Results flagged for a closer look

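In 6 members the lines were called in opposite directions against WT, and the difference between the lines was itself called (limma, Benjamini-Hochberg adjusted over all genes tested). How many of all genes met this rule was not counted, so the 6 cannot be set against a background. Calls were common, with 56.2% of all genes in C4 against WT, 47.9% in B3 against WT and 56.4% in C4 against B3. C4 exceeded B3 by 0.98 in ITGA7 (adjusted p = 1.58e-16), by 0.62 in LAMB2 (9.17e-16), by 0.62 in LAMB3 (5.57e-13) and by 0.55 in ITGB4 (1.21e-11). For ITGB8 and ITGA4 C4 was below B3, with changes of -0.52 (1.54e-12) and -0.20 (9.99e-07). The side of ITGA4 that rests on C4 against WT was lost without WT library 1 (adjusted p = 0.116), C4 library 1 (0.0580) or C4 library 2 (0.0556). Relative to its neighbours, ITGA4 changed by only -0.037 in C4 against WT. ITGA7 shares exonic sequence with METTL7B and BLOC1S1 on the opposite strand, and whether reads there were told apart is unknown. Both were also higher in C4 than in B3, METTL7B by 0.71 and BLOC1S1 by 0.19.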

How the results depend on the processing

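Counts of called members stayed within 1.5 times under other filters, scalings, a pseudocount of 10, robust moderation, fits of only the compared groups and centring on neighbours within 5 Mb. They moved under a test against a change of 0.1 (treat), to 11 in C4 and 12 in B3, against 22 and 23 without that threshold, which by construction asks for larger changes. Under treat, 25.7% of all genes were called in C4 and 16.7% in B3. Leaving out a library gave 18 to 22 calls in C4, 20 to 23 in B3 and 21 to 24 in C4 against B3. Over all genes those fits called 51% to 56.3% in C4, 42.2% to 48.7% in B3 and 50.8% to 58.3% in C4 against B3. Without WT library 1, whose 22 abundant members had a median deviation of 0.05, there were 20 in C4 (10 higher, 10 lower) and 22 in B3 (5 higher, 17 lower). With the replicate block the counts were 20 in C4, 23 in B3 and 24 in C4 against B3, where 54.5%, 45.6% and 54.8% of all genes were called. LAMA4 (adjusted p = 0.0657) and LAMC1 (0.0551) then lost their C4 call. Same-numbered libraries correlated between -0.23 and 0.02, and differently numbered ones between -0.12 and 0.22. With 3 libraries per group, these correlations cannot show whether the numbers mark libraries handled together. Setting every library to the same total moved the share of higher calls over all genes to 61.5% in C4 and 64.2% in B3, against 50.2% and 48.5%, and to the same median to 60.8% in C4. Under both scalings LAMA4, LAMC1 and ITGA4 lost their C4 call and ITGA9 and ITGB2 their B3 call, while ITGA2B, ITGB7 and LAMC3 were called higher in C4; at the same total LAMA3 also lost its B3 call (0.0641) and ITGA10 and ITGAL gained one. ITGB7 reversed when centred on its neighbours, to 0.12 in B3 (adjusted p = 0.0260) and to a log2 change of -0.0676 in C4 against B3 (0.173), because those neighbours had a median change of -0.13 in B3 and of 0.17 in C4 against B3. With exon lengths of the basic annotation, an alternative chosen after seeing the data, the share differences from WT were -10.1 points for ITGB3 and 0.138 for ITGB8 in C4, and 0.136 for ITGB5 and 1.08 for ITGB8 in B3, against -10.7, 0.244, 0.219 and 0.908. The cause of the other lost calls was not tested. Changes of weak genes may be understated in these values, and read depth is unknown.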
